A study of Rattus norvegicus with 862 samples.

Results

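Gabapentin was given to 6 of the 840 rats whose hearts make up this series, and 6 of the 862 arrays, 1 per rat, carry its name. The arrays were taken by label: gabapentin at 2500 mg/kg in water by oral gavage, 3 rats harvested at 3 d and 3 at 5 d. They were set against 17 rats given water alone by the same route (dose 0), 8 at 3 d and 9 at 5 d, whose RNA was extracted in the same campaign. All were male Sprague Dawley rats (CD-IGS), aged 6 to 8 weeks when bought and carrying no engineered allele, and the 3 d and 5 d harvests began in the morning and ran over several hours, with no hour given for an animal. The series as a whole covers 88 compounds in 631 treated and 231 vehicle control arrays, read as poly(A) RNA of whole heart on an Affymetrix whole-genome rat array. Each value below is a log2 level of a probe set, so a difference of 1 is a doubling, and levels of different genes are not compared.

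The 6 gabapentin rats belonged to 1 study and the 17 water controls to 7 others, with 0 controls from the gabapentin study, so that treatment and study cannot be told apart. The arrays behaved as heart: the 19 measured heart muscle markers averaged 13.39 to 13.52 in the gabapentin rats and 12 to 13.47 in the water controls, while 7 red blood cell genes stood at 7.46 to 8.09 after gabapentin and 7.36 to 8.26 after water. Some arrays stood apart. Water control 5 d replicate 3 correlated at 0.923 with the mean of all arrays, against 0.968 or more in every other array used here, and had the lowest heart muscle mean, 12. Water control 3 d replicate 1 had an atrial marker mean of 14.05 (median of that group 7.24) and an adipocyte mean of 9.84 (median 6.24), and replicate 5 of that group an atrial mean of 12.74. Among the gabapentin rats, 3 d replicate 3 had a mean of 7.22 over 20 liver genes, against 5.13 to 5.47 in the other 5, and Alb, which encodes the serum protein albumin, stood at 12.08 there, at 7.12 or less in the other gabapentin rats and at up to 12.07 in the controls, of which 3 d replicate 3 had a liver mean of 6.92. List counts were repeated without water control 5 d replicate 3 and 3 d replicate 1 together, and without gabapentin 3 d replicate 3. These controls are the ones left out below as control arrays that stand apart. Where either step moved the count of a list, the new count stands beside it. List counts without water control 3 d replicate 5 or water control 3 d replicate 3 were not made. The labels give each rat a number of its own but no replicate number that runs across groups, so the replicate numbers used here are names only.

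Gabapentin is an anticonvulsant and a structural analogue of GABA. It does not act on GABA receptors but binds the alpha-2-delta subunits of voltage-gated calcium channels, which carry the channel to the cell surface, and it crosses membranes on the L-type amino acid transporters that also carry leucine and isoleucine. In heart muscle, alpha-2-delta subunits accompany the L-type channel through which calcium enters at each beat. The adult heart burns mainly fatty acids, and its transcripts follow feeding, stress hormones, load and the time of day.

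None of the genes that bind or carry gabapentin passed the test. Of 10 listed genes for binding, transport and related enzymes, 8 were measured (Cacna2d2 and Cacna2d4 were not), and 0 were called in either direction, where a gene was called if limma gave it a fold change of at least 1.5 and an adjusted p (Benjamini-Hochberg) not above 0.01. Over all 14217 genes, 0.907% were called. Cacna2d1, which encodes the alpha-2-delta subunit that is prevalent in heart, stood at 8.94, 9.13 and 9.04 in the 3 d gabapentin rats and 8.41 to 8.85 (median 8.75) in the 3 d controls. At 5 d it stood at 8.81, 8.6 and 8.49 after gabapentin and at 7.75 to 8.95 (median 8.61) after water. The 3 d groups did not overlap and the 5 d groups did, and the estimate over both durations was 0.24 (95% interval -0.01 to 0.48, adjusted p = 0.58 by limma). Slc3a2, the heavy chain that pairs with the amino acid transporters, had the highest change of the list, 0.31 (interval 0.03 to 0.60, adjusted p = 0.465). Its light chains Slc7a5 and Slc7a8 stood at 0.11 and 0.00, the cation transporter Slc22a4, which carries gabapentin in kidney, at -0.03, and Cacna2d3 at -0.07. Bcat1 and Bcat2, the branched chain aminotransferases, of which gabapentin inhibits the cytosolic form, stood at 0.06 and 0.04. The median change of these 8 genes was 0.05, beside 0.02 over all genes. Of the neighbouring lists, calcium channel pore and beta subunits had 0 of 15 called (median -0.08), genes of GABA and glutamate metabolism 0 of 14 (median 0.00), thrombospondins, which also bind alpha-2-delta, 0 of 4, and enzymes of branched chain amino acid breakdown 0 of 18 (median 0.18). Without the 2 control arrays that stand apart the median of the branched chain list was 0.07.

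Elsewhere gabapentin hearts differed from water hearts in 129 genes (0.907% of 14217), of which 122 were higher (0.858%) and 7 lower (0.0492%). The genes furthest above the controls were Nr4a3, an orphan nuclear receptor induced by stress signals, Pdk4, the kinase that shuts pyruvate dehydrogenase and so spares glucose, Tent5b, a poly(A) polymerase, and Angptl4, an inhibitor of lipoprotein lipase. Also among the 12 highest were Fkbp5, a co-chaperone of the glucocorticoid receptor, Kcna5, a repolarizing potassium channel, and Tnfrsf12a, the receptor of the cytokine TWEAK. With them stood Rhobtb1, Sult1a1, a phenol sulfotransferase, Fam107a, a stress-responsive actin-binding protein, Tmem252 and Pcdh20, a protocadherin. The 7 lower genes were G0s2, an inhibitor of the lipase that breaks down stored triglyceride, C2cd4b, Sox4, Cited4, Klhdc7a, Nfil3 and Mmp11.

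Pdk4 stood at 13.09, 12.82 and 12.72 in the 3 d gabapentin rats and at 9.34 to 11.94 (median 10.1) in the 3 d controls. At 5 d it stood at 12.3, 12.27 and 12.3 after gabapentin and at 9.88 to 11.52 (median 10.51) after water. The groups did not overlap at either duration, and the change over both was 2.23 ± 0.28 (SE), a 4.68-fold difference (adjusted p = 2.66e-05). Fam107a stood at 9.05, 8.74 and 8.51 in 3 d gabapentin rats, against 6.26 to 6.93 (median 6.45) in controls. Its 5 d levels were 7.68, 7.94 and 8.04 after gabapentin and 6.09 to 6.91 (median 6.48) after water. Again no gabapentin rat overlapped the controls, with a change of 1.81 ± 0.15 (3.51-fold, adjusted p = 5.62e-08). Tmem252 behaved likewise, with 9.37, 9.32 and 8 at 3 d and 8.38, 8.29 and 8.47 at 5 d after gabapentin, against 6.47 to 7.26 at 3 d and 5.99 to 7.12 at 5 d after water.

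Nr4a3 had by far the highest estimate, 4.22 ± 0.77 (18.7-fold, adjusted p = 0.00197), but its controls were spread. The gabapentin rats stood at 9.59, 8.84 and 9.9 at 3 d and at 9.5, 10 and 10.36 at 5 d. The water controls ran from 4.09 to 10.1 (median 4.39) at 3 d and from 4.36 to 9.22 (median 4.78) at 5 d. Most controls were far below every gabapentin rat, but 3 d replicate 2 lay among them. Water control 5 d replicates 2 and 3 stood at 8.76 and 9.22, the latter above the gabapentin rat at 8.84. Under 11 other choices of controls and processing the gene was called in 7, with changes of 2.82 to 4.56. Neither duration alone was called for this gene (adjusted p = 0.0753 at 3 d and 0.166 at 5 d). Across the series at 3 d, 17 of 72 vehicle controls (23.6%) and 77 of 216 rats given other compounds (35.6%) exceeded the gabapentin mean of 9.44.

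Angptl4 was uneven among the gabapentin rats, at 9.05, 7.36 and 9.38 at 3 d and at 7.11, 7.84 and 6.4 at 5 d, against 5.32 to 6.99 and 5.26 to 6.67 in the 3 d and 5 d controls. At 3 d all 3 rats lay above the controls and at 5 d 1 of 3 lay among them; the change was 1.94 ± 0.31 (3.83-fold, adjusted p = 0.000474). Rhobtb1 (1.93 ± 0.20, adjusted p = 3.4e-06), Sult1a1 (1.84 ± 0.26, adjusted p = 0.000175), Kcna5 (1.69 ± 0.20, adjusted p = 1.55e-05) and Pcdh20 (1.64 ± 0.18, adjusted p = 7.83e-06) were each more than 3-fold higher. Of 18 measured potassium and sodium channel genes Kcna5 alone was called: it stood at 8.27, 8.68 and 7.32 after 3 d of gabapentin and 7.96, 7.26 and 8.08 after 5 d, against 5.65 to 7.04 and 5.91 to 6.85 after water, without overlap. The pacemaker channel Hcn4 stood at -0.28 and the connexin Gja1 at -0.27, neither called. Kcna5 made 5.56% of the channel list called higher, beside 0.858% of all genes. With study as a random block or hybridisation batch as a fixed term 0 of the 18 were called.

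On the lower side, G0s2 stood at 7.51, 7.78 and 8.36 in 3 d gabapentin rats and at 9.04 to 10.9 (median 10.05) in their controls. Its 5 d levels were 7.78, 9.06 and 7.95 after gabapentin and 8.7 to 10.97 (median 10.01) after water, so that 1 of the 6 gabapentin rats lay within the control range. The change was -1.85 ± 0.27, a level 0.277 times that of the controls (adjusted p = 0.000191). C2cd4b, described as an endothelial and islet transcript induced by inflammation, stood at 5.48, 5.89 and 5.42 at 3 d and 5.43, 5.88 and 5.3 at 5 d after gabapentin, against 5.93 to 7.59 and 6.48 to 8.28 after water, with no overlap (change -1.53 ± 0.25, adjusted p = 0.000519). The transcription factor Sox4 (-1.31), the coactivator Cited4 (-0.91), which rises in the exercised heart, Klhdc7a (-0.85) and the matrix protease Mmp11 (-0.67) completed the called genes beside Nfil3, described with the clock. Sox4, Cited4 and Klhdc7a each lost the call without any 1 of 5 of the 6 gabapentin rats, and Nfil3 without any 1 of 4. Next in order of p among lower genes stood Mamstr (-0.46), Plekhh3 (-0.53) and Zfp608 (-0.45), under the fold threshold.

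**Figure D1:**
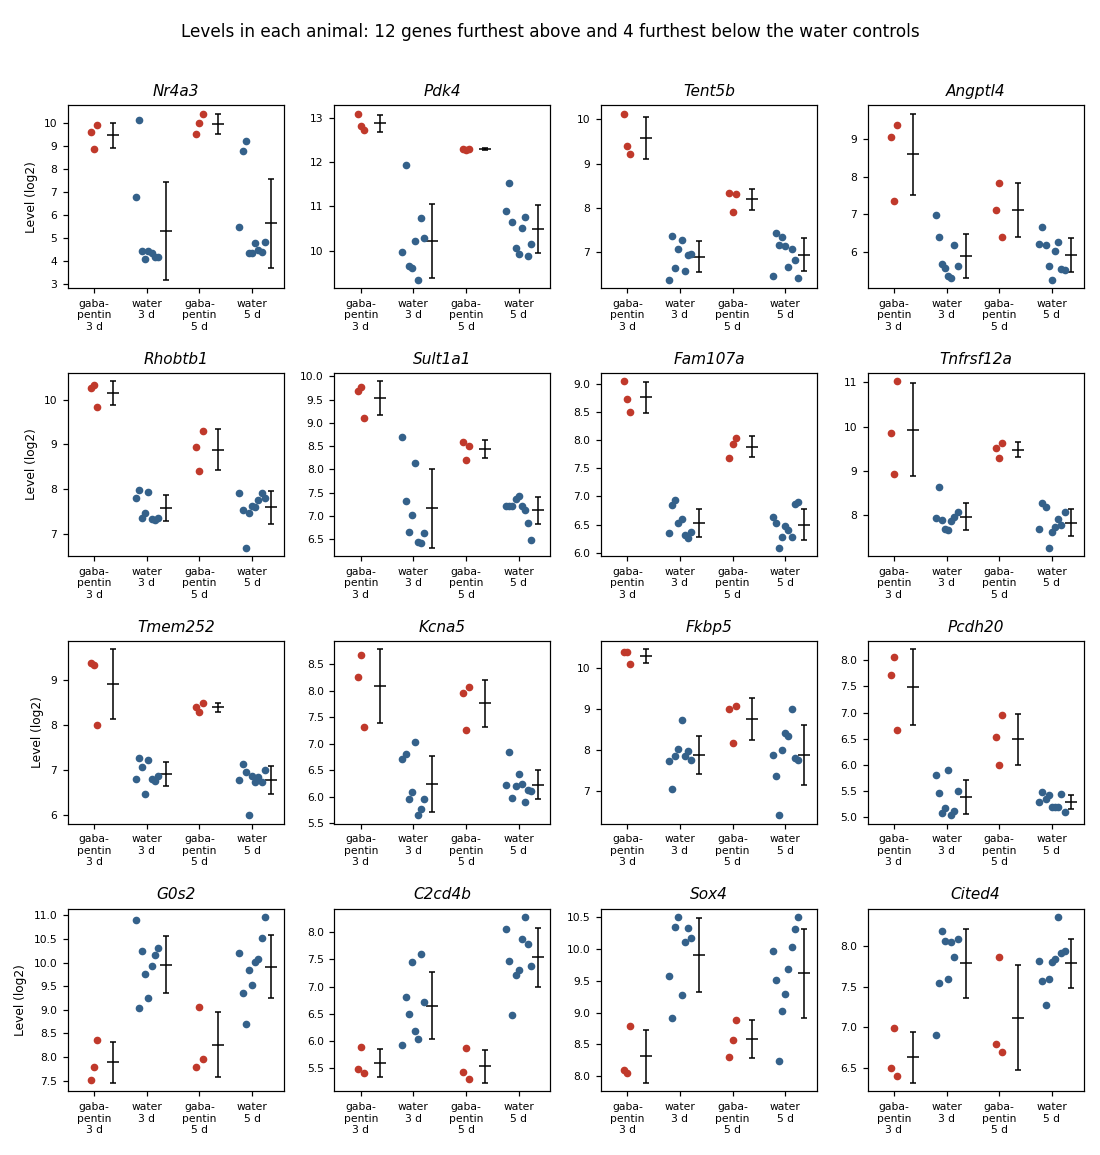
Log2 level of the probe set (vertical axis) in each animal for the 12 called genes with the highest change and the 4 with the lowest; red points are gabapentin rats (3 per duration), blue points water controls (8 at 3 d, 9 at 5 d), and the bar beside each group is its mean ± SD. Pdk4, Fam107a and Tmem252 show no overlap between the groups, whereas Nr4a3 has a control at 10.1 among the gabapentin rats.

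These counts leaned on which control animals were used and on how study was treated. With study as a random block 13 genes were called, all of them among the 129 and all higher. In that fit 34 of the 129 had an adjusted p of 0.05 or less. Every one of the 129 kept its sign, with a median size of 0.995, but they had been chosen in the same gabapentin rats. With hybridisation batch as a fixed term 31 genes were called, and within the batches that held both groups at 1 duration the 129 genes had a median size of 1.21 at 3 d (1 gabapentin rat against 2 controls) and 0.9 at 5 d (1 against 4). Fam107a, Tmem252 and Fam117b, a protein of unknown function, were called in the whole set of 11 alternatives, and Rhobtb1, Tnfrsf12a, Nr1d2 and Rapgef5 in 10 of 11. With 48 water controls of every campaign 36 genes were called, with the 8 controls of the gabapentin extraction day 53, and after a new quantile normalization 113, of which 93 were higher and 20 lower.

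Genes known as targets of the glucocorticoid receptor stood out by number: 6 of 20 measured were called higher and 0 lower, beside 0.858% of all genes, and the list's median change was 0.70, beside 0.02 for all genes. The 6 were Fkbp5, Pdk4, Klf9, Mt2A, Cebpd and Foxo3. Fkbp5, the classical readout of the receptor, stood at 10.39, 10.41 and 10.11 in the 3 d gabapentin rats and 7.04 to 8.75 (median 7.85) in the 3 d controls, without overlap. At 5 d it stood at 9.02, 8.18 and 9.09 after gabapentin and 6.41 to 9.01 (median 7.88) after water, where the groups overlapped. Across the series at 5 d, 49.6% of 232 rats given other compounds and 32.9% of 85 vehicle controls exceeded the gabapentin mean of Fkbp5 (8.77). Klf9, a zinc finger factor of the hormone's early response, stood at 11.64, 11.51 and 11.31 at 3 d and at 10.89, 10.81 and 11.14 at 5 d after gabapentin, above all controls (9.75 to 10.62 at 3 d and 9.31 to 10.42 at 5 d), with a change of 1.08 ± 0.14 (adjusted p = 3.33e-05). Mt2A, a metallothionein that binds zinc and copper, was 2.10-fold higher (adjusted p = 0.00271), Cebpd, an acute-phase transcription factor, 2.08-fold (adjusted p = 0.00102), and Foxo3, which drives genes of fasting and atrophy, 1.63-fold (adjusted p = 0.00513). Of members that were not called, the mineralocorticoid- and glucocorticoid-induced kinase Sgk1 stood at 0.93 (adjusted p = 0.0342), Errfi1, a feedback inhibitor of the EGF receptor, at 1.18 (adjusted p = 0.0798), Klf15, a regulator of heart lipid use, at 0.70 and Tsc22d3, the leucine zipper GILZ, at 0.43. The muscle ubiquitin ligases Trim63 and Fbxo32 stood at 0.38 and -0.19, and Dusp1 at -0.35, the lowest of the list. Without the 2 control arrays that stand apart 7 of the 20 were called, 5 were called without gabapentin 3 d replicate 3, and with study as a random block 0 were, while the list's median lay at 0.67, 0.71 and 0.72. With hybridisation batch as a fixed term 0 of the 20 were called as well, with a median of 0.69. Fkbp5 lost its call without gabapentin 3 d replicate 1 or 2, Mt2A without replicate 1, and Foxo3 without any 1 of 5 gabapentin rats. Pdk4 belongs to the next list too, and Per1 (0.74, not called) to the clock.

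The fuel genes split. Of 25 measured PPAR alpha targets and fatty acid oxidation genes only Pdk4 and Angptl4 were called, or 8%, beside 0.858% of all genes called higher. With study as a random block or hybridisation batch as a fixed term 0 of the 25 were called. The enzymes and carriers of the list stood close together, from Plin5 at 0.09 to Cpt1a, the liver-type carnitine palmitoyltransferase, at 0.41; Cpt1b, its muscle form, stood at 0.20, the dehydrogenase Acadm at 0.25 and the fatty acid carrier Cd36 at 0.35. All 25 members were above 0, with a median of 0.23, beside 7938 of 14217 genes above 0 over all. For oxidative phosphorylation, 0 of 50 measured genes were called, 49 were above 0 and the median was 0.14. The 19 heart muscle markers were all above 0 and also had a median of 0.14. Without the 2 control arrays that stand apart the medians were 0.11 for the PPAR alpha list, 0.04 for oxidative phosphorylation and 0.05 for heart muscle. In glucose uptake and glycolysis 0 of 17 genes were called (median 0.13, or 0.03 without the 2 control arrays that stand apart).

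**Figure D2:**
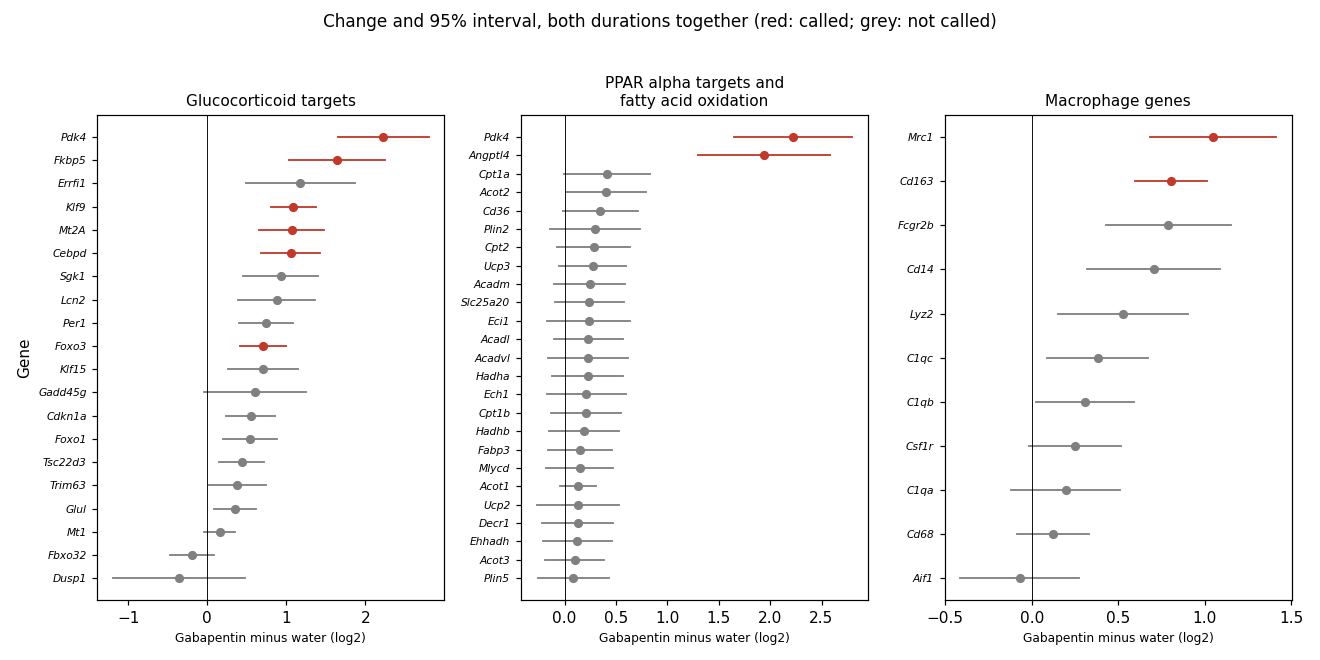
Change of each measured gene of 3 lists, gabapentin minus water in log2 units over both durations (horizontal axis), with its 95% interval from limma; red marks called genes and grey the rest. In the glucocorticoid list 6 of 20 genes are red and 18 lie above 0; in the PPAR alpha list Pdk4 and Angptl4 lie apart from the other 23; in the macrophage list Mrc1 and Cd163 are red.

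Some clock genes were called as well. The core clock is a loop in which CLOCK and BMAL1 switch on the Per and Cry genes, the nuclear receptors Nr1d1 and Nr1d2 (REV-ERB) and the output factors Dbp and Tef, through E-boxes; the Per and Cry proteins then shut the loop, REV-ERB represses Bmal1 and Nfil3 at ROR elements, and Dbp and Nfil3 compete for D-boxes. Of 17 measured clock genes, 5 were called higher over both durations (Per2, Per3, Nr1d1, Nr1d2 and Dbp) and 1 lower (Nfil3), beside 0.858% and 0.0492% of all genes, with a median of 0.44. With study as a random block 1 was called higher and 0 lower, with hybridisation batch as a fixed term 2 and 0, 3 and 0 without gabapentin 3 d replicate 3, and without the 2 control arrays that stand apart 6 and 2. The 300 base windows around the start sites of 3 of them are shown (mostly upstream, RefSeq on GRCr8, written along the gene's own strand). They were picked because each holds the letters of an element, or of its core only, from a different arm of this loop. Capitals mark these letters. Nr1d1, chr10:84229405-84229704, minus strand, holds an E-box, CACGTG. Per2, chr9:99496944-99497243, minus strand, holds a D-box, TTATGTAA. Nr1d2, chr15:9954784-9955083, plus strand, holds only the core letters of a ROR element, AGGTCA.
Nr1d1: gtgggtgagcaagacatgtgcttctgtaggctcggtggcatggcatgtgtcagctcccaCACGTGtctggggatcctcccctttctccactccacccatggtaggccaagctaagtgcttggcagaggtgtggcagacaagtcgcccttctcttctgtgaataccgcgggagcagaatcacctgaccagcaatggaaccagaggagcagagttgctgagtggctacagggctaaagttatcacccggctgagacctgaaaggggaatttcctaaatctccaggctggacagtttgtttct
Per2: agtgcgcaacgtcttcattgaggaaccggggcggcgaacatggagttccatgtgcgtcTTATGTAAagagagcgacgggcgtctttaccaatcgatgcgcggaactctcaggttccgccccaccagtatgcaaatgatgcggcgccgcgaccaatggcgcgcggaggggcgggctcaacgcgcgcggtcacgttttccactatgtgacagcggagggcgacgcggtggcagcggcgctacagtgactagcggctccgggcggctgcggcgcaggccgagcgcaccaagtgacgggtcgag
Nr1d2: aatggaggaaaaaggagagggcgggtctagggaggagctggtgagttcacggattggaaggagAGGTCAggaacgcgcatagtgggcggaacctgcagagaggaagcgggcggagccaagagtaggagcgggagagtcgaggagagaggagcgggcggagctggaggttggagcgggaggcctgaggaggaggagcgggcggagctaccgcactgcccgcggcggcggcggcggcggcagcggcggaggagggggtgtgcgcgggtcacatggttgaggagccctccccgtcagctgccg
Nr1d1 has 2 windows in the table, of which 1 holds the motif and is shown. Of all 33469 promoter windows of that length, searched on both strands, 6.42% held CACGTG, 0.893% TTATGTAA and 16.2% AGGTCA. Of the 17 measured clock genes 15 had a window, and the E-box was found for 4 (Nr1d1, Tef, Bhlhe40 and Bhlhe41), the D-box for Per2 alone and the ROR core for Bmal1 and Nr1d2. A match is a stretch of letters and not a shown binding site.

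Dbp gave the clearest contrast between durations. It stood at 8.68, 8.76 and 8.76 in the 3 d gabapentin rats and at 6.48 to 7.16 (median 6.77) in the 3 d controls. At 5 d it stood at 6.89, 6.96 and 6.43 after gabapentin and at 5.91 to 6.96 (median 6.7) after water. The groups were far apart at 3 d and lay on each other at 5 d: the change was 1.97 at 3 d (adjusted p = 4.6e-07) and 0.16 at 5 d (adjusted p = 0.9996), and the difference of the changes, -1.81 ± 0.25, was the only one called among 14217 genes (0.00703%, adjusted p = 0.00368 by limma's interaction test). Unadjusted p under 0.05 was reached by 463 genes (3.26%) in that test. Without gabapentin 3 d replicate 1 or 3, or 5 d replicate 1 or 3, the difference was not called.

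Nr1d2 stood at 10.27, 10.19 and 10.22 at 3 d and at 9.05, 8.87 and 9.36 at 5 d after gabapentin, against 7.85 to 8.55 and 6.82 to 8.79 after water, without overlap at either duration. The change was 1.59 ± 0.20 (3.01-fold, adjusted p = 2.45e-05). Nr1d1 stood at 9.33, 9.37 and 9.56 at 3 d, above controls at 6.46 to 8.1, and at 8.09, 8.14 and 7.24 at 5 d, where controls ran from 6.06 to 7.83 and 1 of 3 gabapentin rats lay among them. Per3 (1.32 ± 0.16, adjusted p = 2.53e-05) and Per2 (0.87 ± 0.14, adjusted p = 0.000678) were also higher. Nfil3, which opposes Dbp, was lower, at 6.44, 6.91 and 7.1 in 3 d gabapentin rats and 7.72 to 8.39 in controls, and at 7.47, 7.98 and 7.92 in 5 d gabapentin rats against 7.6 to 8.7. The call of Nr1d1 over both durations was lost when any 1 of 7 animals was left out, and that of Dbp with any 1 of 13. Tef was called at 3 d alone (1.24, adjusted p = 0.00197). The activators Bmal1 (-0.74, adjusted p = 0.0759) and Npas2 (-0.46) were not called, nor were Clock (0.08), Cry1 (-0.52) and Cry2 (-0.24). At 3 d 6 of the 17 were called higher and 1 lower, beside 0.851% and 0.0563% of all genes. At 5 d 0 of the 17 were called, where only 0.0563% of all genes were called in either direction.

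Clock levels like these were common in the series. At 3 d, 100 of 216 rats given other compounds (46.3%) and 5 of 72 vehicle controls (6.94%) exceeded the gabapentin mean of 8.74 for Dbp. At 5 d, 219 of 232 such rats (94.4%) and 66 of 85 controls (77.6%) exceeded its mean of 6.76. For Nr1d2 the gabapentin mean of 10.23 at 3 d was exceeded by 58 of 216 treated rats (26.9%) and 3 of 72 controls (4.17%). Harvest hour moves clock genes and is not given per animal; its part in these values was not tested.

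**Figure D3:**
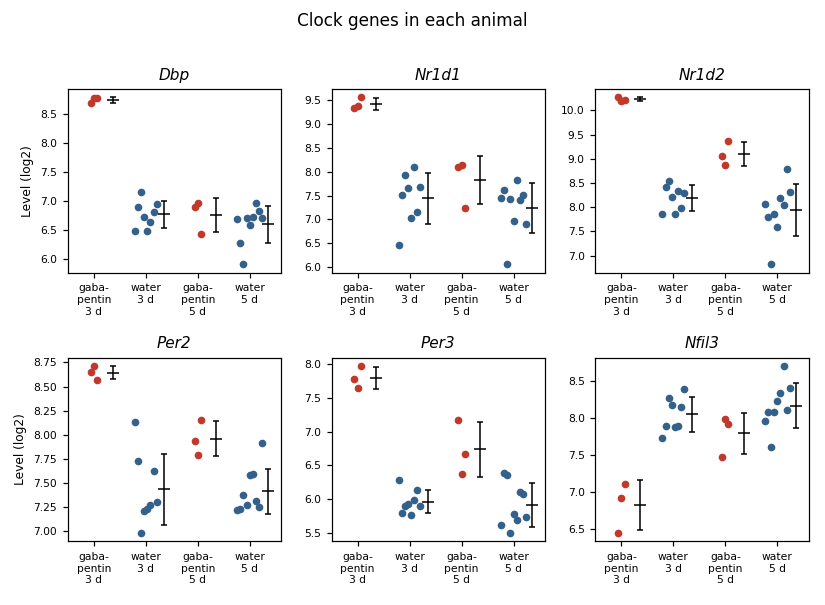
Log2 level (vertical axis) of the 6 called clock genes in each animal, gabapentin in red and water controls in blue, with mean ± SD beside each group. The 3 gabapentin rats at 3 d stand above every control of that duration for Dbp, Nr1d1, Nr1d2, Per2 and Per3 and below every control for Nfil3; at 5 d Dbp lies at 6.43 to 6.96, within reach of the controls.

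Called higher were 5.26% of the heart muscle list and 18.2% of the hypertrophy and stretch list, beside 0.858% of all genes. Tcap, the titin cap protein of the Z-disc, was the only one of the 19 heart muscle markers that was called: it stood at 13.48, 13.32 and 13.17 at 3 d and at 12.66, 12.47 and 12.42 at 5 d after gabapentin, against 11.3 to 12.51 and 10.81 to 12.26 after water, without overlap (1.19 ± 0.18, adjusted p = 0.000216). Across the series at 5 d, 81.9% of 232 rats given other compounds and 35.3% of 85 vehicle controls exceeded the gabapentin mean of Tcap (12.52). Xirp1, a repair protein of the intercalated disc, and Myc were 2 of 11 called in the hypertrophy and stretch list. Xirp1 stood at 11.09, 10.62 and 12.3 at 3 d and 10.98, 10.83 and 11.07 at 5 d, with controls at 9.6 to 10.82 and 9.68 to 10.31. The fetal and load markers of that list were not called: the natriuretic peptides Nppa and Nppb stood at 0.30 and -0.02, the beta myosin heavy chain Myh7 at -0.16 and Ankrd1 at 0.41. With study as a random block 0 genes of either list were called, and without gabapentin 3 d replicate 3 the stretch list had 1. With hybridisation batch as a fixed term the heart muscle list had 0 called genes and the stretch list 1. Further called genes with muscle roles, named after their values were seen, were Lmcd1 (1.60), a calcineurin partner at the Z-disc, Flnc (1.24), filamin C, Klhl40 (1.36), a stabilizer of thin filaments, Abra (1.40), an actin-binding activator of MRTF and SRF signalling, and Lmod2 (0.69), which lengthens thin filaments. Calcium handling had 0 of 16 genes called (median 0.11, or 0.04 without the 2 control arrays that stand apart).

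Several cell stress lists held 1 or 2 called genes each, beside 0.858% of all genes called higher. The share called higher was 15.4% for heat shock, 14.3% for osmotic response and 10.5% for immediate early genes. It was 10% for heme and iron, 8% for integrated stress, 7.14% for p53 and 5.56% for NRF2 targets. Hmox1, heme oxygenase, stood at 8.31, 8.11 and 9.64 at 3 d and 7.84, 8.67 and 7.1 at 5 d after gabapentin, against 6.67 to 7.33 and 6.4 to 7.17 after water, with 1 of 6 gabapentin rats inside the control range (1.38 ± 0.20, adjusted p = 0.000182). It was the only called gene of 18 NRF2 targets and of 10 heme and iron genes. Hspa1a, the inducible HSP70, stood at 8.73, 8.32 and 10.42 at 3 d and at 9.39, 9.66 and 9.94 at 5 d, against 7.98 to 8.87 and 8.13 to 8.69 after water, so the groups overlapped at 3 d and were apart at 5 d (0.98 ± 0.20, adjusted p = 0.00603). This call was lost when any 1 of 9 animals was left out, gabapentin 3 d replicate 3 among them. With Dnajb4, a co-chaperone of muscle (1.01 ± 0.14), it made 2 of 13 heat shock genes called, or 1 without that rat. Ddit4, which restrains mTOR (1.37), and Cebpb (1.17) were 2 of 25 in the amino acid and integrated stress response, whose median was 0.03; Atf3, of the same pathway, stood at 2.41 and was not called (adjusted p = 0.146). Sesn1, a p53 target that also restrains mTOR (0.98), was 1 of 14, Aqp1, a water channel (0.78), 1 of 7 osmotic response genes, and Nr4a3 and Myc 2 of 19 immediate early genes (median 0.17). The call of Sesn1 was lost when any 1 of 16 of the 23 animals was left out, those of Ddit4 and Aqp1 with any 1 of 4, and those of Cebpb and Myc with any 1 of 3. With study as a random block 0 genes of these stress lists were called. With hybridisation batch as a fixed term the NRF2 list and the heme and iron list had 1 called gene each. The other stress lists had 0 in that fit. Without gabapentin 3 d replicate 3, the integrated stress and immediate early lists had 1 called gene each and the p53 and osmotic lists 0. Gabapentin 3 d replicate 3, the animal with the liver transcripts, held the highest gabapentin level of Hspa1a, Hmox1, Xirp1, Tnfrsf12a (11.02) and Myc (8.43), and the lowest 3 d level of Ddit4 (8.71), Kcna5 and Tmem252. It lay more than 1 log2 unit above both other 3 d gabapentin rats in 117 genes, against 4 and 16 for the others. Among those genes the chemokines Ccl2 (11.11 against 8.26 and 6.91) and Ccl7 (8.47 against 5.19 and 4.85) were chosen after their values were seen. Without this animal 91 genes were called over both durations, all of them among the 129. The part of its liver transcripts in the results was not tested. Liver genes as a list had 0 of 20 called, though 13 of the 20 lay more than 1 log2 unit above every other gabapentin rat in this animal.

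Of 11 measured macrophage markers, 2 were called higher (Mrc1 and Cd163, the scavenger receptors of resident macrophages), beside 0.858% of all genes. With study as a random block or hybridisation batch as a fixed term 0 were called, and without the 2 control arrays that stand apart 3 were. The median change was 0.38, and the list's mean level was 7.7 to 8.08 at 3 d and 7.57 to 7.86 at 5 d after gabapentin, against 7.33 to 8.07 and 6.68 to 7.52 after water. Cd163 stood at 6.48, 6.72 and 6.57 at 3 d and 5.73, 5.92 and 5.99 at 5 d, above controls at 5.22 to 5.88 and 5.18 to 5.6 (0.80 ± 0.10, adjusted p = 2.59e-05). Mrc1 stood at 9.27, 8.92 and 8.84 at 3 d and 8.52, 8.45 and 8.73 at 5 d, above controls at 7.71 to 8.59 and 6.68 to 8.34, where 8.59 was the control array with the high adipocyte mean. Fcgr2b, an inhibitory Fc receptor, was called at 3 d alone (1.42). The broad markers Cd68 (0.12), Csf1r (0.25), C1qa (0.20) and Aif1 (-0.07) were not called, whereas Clec10a (1.10) and Lyve1 (1.02), lectin-type and hyaluronan receptors of tissue macrophages, were called and are named after their values were seen. In whole-heart RNA, a change in the number of cells of a type and a change in RNA per cell cannot be told apart.

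The alarmins S100a8 and S100a9, calcium-binding proteins abundant in neutrophils, were called higher among 8 neutrophil markers, beside 0.858% of all genes. With study as a random block or hybridisation batch as a fixed term 0 of the 8 were called. S100a9 stood at 8.25, 7.79 and 8.21 at 3 d and 7.02, 8 and 7.59 at 5 d after gabapentin, against 5.73 to 6.94 and 5.86 to 7.31 after water (1.40 ± 0.20, adjusted p = 0.000191). The other markers of the list remained low: Csf3r, Cxcr2, Mmp8, Mmp9, Camp and Np4 averaged 4.24 to 4.92 in gabapentin rats and 4.28 to 4.83 in controls, and none was called. The epoxide hydrolase Ephx1, an NRF2 target, was called at 3 d alone (0.84), and Timp1, a matrix protease inhibitor of the fibroblast list, stood at 1.05 (adjusted p = 0.0139). The remaining lists, fibroblast and matrix (16 genes), endothelial cell (9), smooth muscle (7), atrial muscle (4), lymphocyte (9), red blood cell (7), adipocyte (9), mesothelial cell (7), fast skeletal muscle (14), kidney (12), MHC class II (8), interferon response (18), unfolded protein response (18), cell cycle (26), cholesterol synthesis (14) and AHR targets (7), had 0 called genes. Without the 2 control arrays that stand apart the fibroblast list had 1.

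More genes were called at 3 d than at 5 d. Tested alone, 3 d gave 129 called genes (0.907%), 121 higher (0.851%) and 8 lower (0.0563%), of which 41 were not among the 129 of both durations. At 5 d 8 were called (0.0563%), 7 higher (0.0492%) and 1 lower (0.00703%). Those at 5 d were Rhobtb1, Fam107a, Tnfrsf12a, Tmem252, Lmcd1, Cdc42ep2, an effector of the GTPase Cdc42, Larp6, which binds collagen mRNA, and on the lower side C2cd4b. Across the series at 5 d, 62.9% of 232 rats given other compounds and 37.6% of 85 vehicle controls exceeded the gabapentin mean of Rhobtb1 (8.89). For Tnfrsf12a (9.48) these shares were 32.3% and 30.6%, for Fam107a (7.89) 26.3% and 14.1%, and for Tmem252 (8.38) 21.1% and 5.88%. The 129 genes of both durations were chosen by their change over these same 3 d and 5 d animals. Of them, 129 had the same sign at both durations and 113 the larger change at 3 d. Their median size was 1.19 at 3 d and 0.773 at 5 d, and over all genes the size was larger at 3 d in 63%. Tent5b illustrates the pattern: it stood at 10.13, 9.39 and 9.22 at 3 d and 8.34, 7.91 and 8.3 at 5 d after gabapentin, against 6.36 to 7.35 and 6.41 to 7.42 after water, with changes of 2.70 and 1.25. Only for Dbp did the test of the difference pass the threshold, so for the other genes no difference between durations was shown. The 5 d count was unsteady: it was 0 without gabapentin 5 d replicate 3, 17 without gabapentin 3 d replicate 3, 16 without water control 5 d replicate 3 and 25 without both control arrays that stand apart, where the 3 d count was 263.

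**Figure D4:**
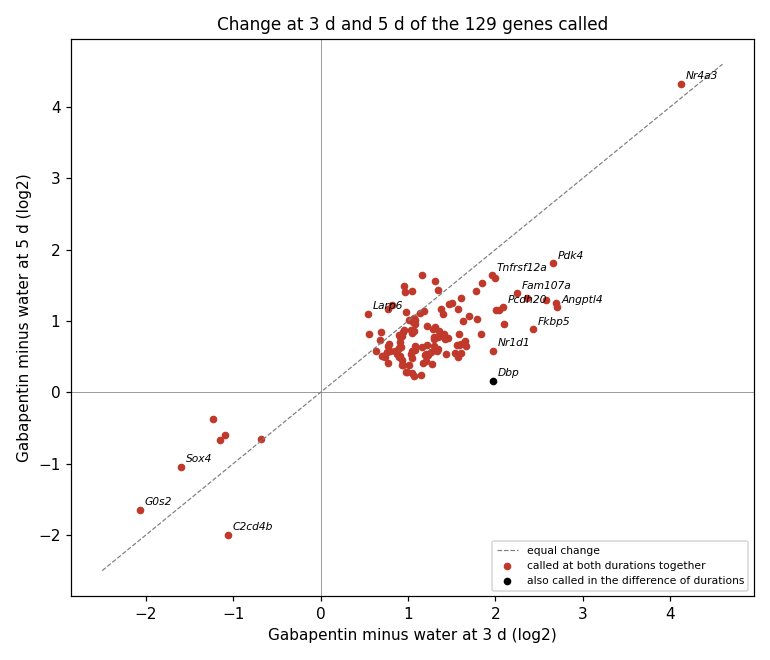
Change of each of the 129 called genes at 3 d (horizontal axis) and at 5 d (vertical axis), gabapentin minus water in log2 units; the dashed line marks equal change and the black point is Dbp, whose difference between durations was called. All 129 have the same sign on both axes and 113 have the larger size at 3 d, and Dbp lies at 1.97 and 0.16.

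Gabapentin was also set directly against 2 other anticonvulsants given by gavage in water in the same campaign, each with 3 rats at 3 d and 3 at 5 d. Phenytoin, at 572 mg/kg, blocks sodium channels, and trimethadione, at 535 mg/kg, an oxazolidinedione, blocks T-type calcium channels. Phenytoin is a hydantoin, whereas gabapentin is an amino acid with a cyclohexane ring. Doses differ between the compounds and each compound comes from a different study, so in these tests compound, dose and study cannot be told apart. The trimethadione study also holds some of the water controls used here. Against phenytoin 16 genes were called (0.113%), 7 higher (0.0492%) and 9 lower (0.0633%); against trimethadione 652 (4.59%), 549 higher (3.86%) and 103 lower (0.724%). Of the 129 genes called against water, 3 were called against phenytoin, all higher, and 112 against trimethadione, 108 of them higher. The 129 had been chosen in the same gabapentin rats that enter these tests, so this overlap and its direction are not separate support.

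The 3 genes were Tent5b (1.26 ± 0.18, interval 0.87 to 1.65, adjusted p = 0.00813), Fam117b (1.04 ± 0.13, adjusted p = 0.00479) and Rapgef5, an exchange factor of Rap GTPases (0.73 ± 0.10, adjusted p = 0.00813). The level of Fam117b was 9.81, 9.55 and 9.04 at 3 d and 8.56, 8.13 and 8.77 at 5 d after gabapentin, while phenytoin rats averaged 8.3 and 7.57. Other leading genes were not called against phenytoin: Nr4a3 -0.21 (-1.15 to 0.72), Pdk4 0.92 (0.45 to 1.39, adjusted p = 0.0647) and Nr1d2 -0.07 (-0.37 to 0.23). Pdk4 averaged 12.63 in phenytoin rats at 3 d and 10.70 at 5 d. The genes lower after gabapentin than after phenytoin, none of which was called against water, were led by the immediate early genes Fos (-3.58 ± 0.51), Fosb (-3.14 ± 0.39), Nr4a1 (-2.22 ± 0.24) and Nr4a2 (-2.11 ± 0.24) and by Myh7 (-3.02 ± 0.39); they are named after their values were seen. Nr4a1 stood at 8.29, 8.39 and 8.38 at 3 d and 10.3, 10.84 and 9.89 at 5 d after gabapentin, against 10.83, 11.61 and 11.02 at 3 d and 11.52, 12.08 and 12.36 at 5 d after phenytoin. Fos spread from 4.19 to 12.06 among the water controls, which covers both compounds. Myh7 stood at 9.3 to 11.78 after gabapentin at 3 d and 12.34 to 14.2 after phenytoin. The count against phenytoin rested on single animals: it was 0 without gabapentin 5 d replicate 1 and 87 without phenytoin 3 d replicate 3, and the ordinary t-test of the methods called 0.

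Among genes called both against water and against trimethadione, Nr4a3 was 5.35 ± 0.17 higher (adjusted p = 2.14e-10), with trimethadione rats averaging 4.32 at 3 d and 4.38 at 5 d, Pdk4 3.08 ± 0.12 (adjusted p = 1.6e-09), Angptl4 2.47 ± 0.32, Ddit4 2.43 ± 0.27, Abra 2.40 ± 0.14 and Tnfrsf12a 2.33 ± 0.26. Genes not called against water also ranked high, among them Atf3 (4.06), Gadd45g (2.51), a stress-induced growth arrest gene, and Errfi1 (2.46), which are named after their values were seen. Of the 103 genes lower than after trimethadione, 4 were also called against water: Dbp (-1.66 ± 0.16, adjusted p = 1.8e-05), Sox4 (-0.74), Mmp11 (-0.72) and Per3 (-0.63). The median over all genes in this comparison was 0.10. After a new quantile normalization 326 genes were called, 172 higher and 154 lower, so the surplus of higher genes depended on the scaling.

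Set side by side against the 17 water controls, which the 3 comparisons share, Pdk4 stood at 2.23 after gabapentin, 1.30 after phenytoin and -0.85 after trimethadione. Fam107a stood at 1.81, 0.95 and -0.15 in the same order, Nr1d2 at 1.59, 1.66 and 1.74, and Dbp at 1.05, 1.41 and 2.72. The medians of the glucocorticoid list were 0.70, 0.57 and -0.21, and those of the clock list 0.44, 0.55 and 0.14. G0s2 stood at -1.85 after gabapentin, -0.35 after phenytoin and -1.26 after trimethadione.

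**Figure D5:**
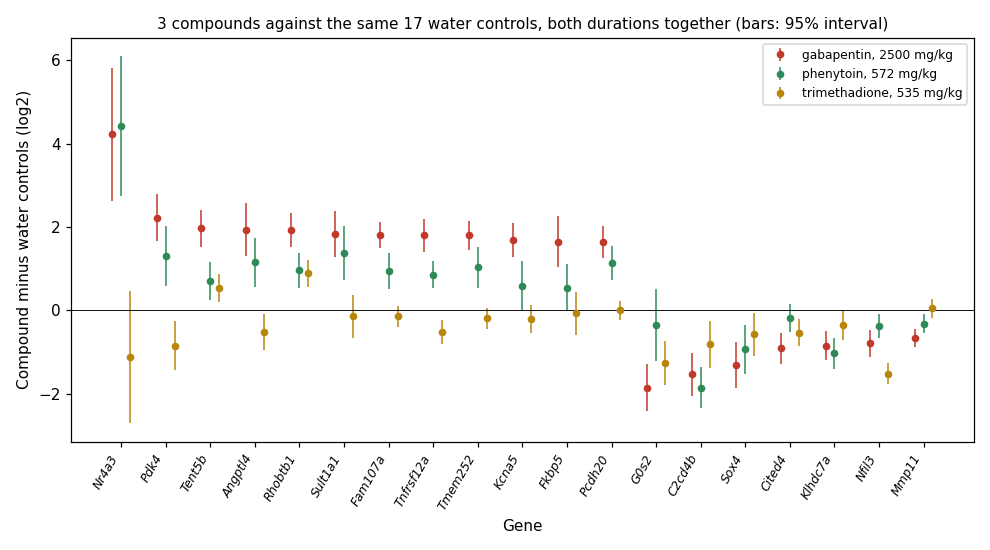
Change of the 12 highest and 7 lowest called genes against the same 17 water controls, compound minus water in log2 units with 95% intervals, for gabapentin (2500 mg/kg), phenytoin (572 mg/kg) and trimethadione (535 mg/kg). Genes were chosen by their gabapentin change, so the red points are high or low by choice; Nr4a3 stands at 4.22 and 4.42 for gabapentin and phenytoin and at -1.13 for trimethadione.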

How the data were processed

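Per the labels, the authors measured poly(A) RNA of rat hearts on Affymetrix arrays and deposited log2 values per probe set; the submitters' processing notes name RMA, with version and annotation not given in the sources used here, and the paper's methods name frma. Whether the deposited values are those is not given. The values were used as deposited (862 arrays, 0 columns left out). Precision is set by how many animals a group has, since an array gives no read depth.

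The array maker's control probe sets (57) were dropped. Of 31099 probe sets, 20832 have 1 gene symbol, 436 several and 9831 none listed, and 20764 matched the reference table of rat genes. For each of 14217 genes, the probe set with the highest mean across the 862 arrays was kept. Promoter windows are those of RefSeq (GRCr8). The 12 controls whose title and labels disagree entered no group, and 1 control array was left out because that rat has an earlier array in another campaign. An extraction campaign is a run of RNA extraction days without a long gap, as the labels give them.

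Gabapentin was compared with water controls with lmFit and eBayes of limma 3.58.1 (R 4.3.3), with duration as a covariate, then by group means for 3 d, 5 d and their difference. A call needed at least a 1.5-fold difference and an adjusted p not above 0.01. The same fit without controls gave the direct tests. No source says more of the replicates than that each is 1 animal. Named were up to 12 called genes in each direction with the same sign at both durations (filled to 10 by p), the binding and transport list, called members and up to 4 leading members of the gene lists, genes called at 1 duration or in the direct tests, and genes marked as named after their values were seen. The alternatives were controls of every campaign or of the gabapentin extraction day, the second array of 1 control, the methods' t-test, the median probe set, quantile normalization anew, only the 60% of genes with the higher means, hybridisation batch or study as blocks, each animal left out, and, added after seeing the data, leaving out 2 control arrays (correlation under 0.95 or adipocyte mean over 7). The tests were tried on simulated data. The gabapentin arrays, the lists and the rule were chosen with earlier results of these data known. Plots were made in Python 3.11.15 (matplotlib 3.10.9).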

Additional observations from a re-analysis of the deposited data

Results flagged for a closer look

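Dbp was the only gene whose gabapentin change differed between durations by the test of the difference itself, with a change at 5 d minus the change at 3 d of -1.81 in log2 units (SE 0.25, adjusted p = 0.00368 by limma). All 3 gabapentin rats at 3 d lay above their controls, and the 5 d groups overlapped.

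Among 112 pairs of a named gene and a group of water controls, 17 had 1 animal far from the rest of its group, judged by Dixon's test, where chance gives about 1 in 20 groups. Of these, 8 fell in water control 5 d replicate 3, the array of lowest correlation with the others, whose level was the lowest of its group for Rhobtb1 (6.69), Klhdc7a (6.57), Cacna2d1 (7.75), Bcat2 (8.11), Foxo3 (8.37), Sesn1 (7.27), Tcap (10.81) and Fam117b (6.32). Water control 3 d replicate 2 had the highest control level of Nr4a3 (10.1), Tnfrsf12a (8.63) and Dnajb4 (10.93) at 3 d. Water control 3 d replicate 1 had that of Slc3a2 (9.61) and Mrc1 (8.59). The others were Cacna2d3 in water control 3 d replicate 3 (4.51), Tmem252 in 5 d replicate 4 (5.99), Ddit4 in 5 d replicate 2 (9.37) and Cd163 in 5 d replicate 8 (5.6).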

How the results depend on the processing

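Over both durations 129 genes were called; the count was 36 with controls of every campaign, 53 with those of the gabapentin extraction day, 31 with hybridisation batch as a fixed term and 13 with study as a random block. At 3 d (129) these counts were 51, 22, 4 and 62, and 263 without the 2 control arrays that stand apart. At 5 d (8) they were 0, 0, 0 and 2, with 4 by the methods' t-test and 25 without the 2 arrays. For the difference between durations (1) they were 0, 0, 0 and 1, with 0 by the methods' t-test, 0 after quantile normalization and 4 without the 2 arrays. Beside these counts of 0, between 290 and 2527 genes had an unadjusted p under 0.05. With no change at all, a share of about 0.05 of the genes tested would fall there. Against phenytoin (16) the methods' t-test called 0, with 1847 at an unadjusted p under 0.05, and against trimethadione (652) quantile normalization called 326. Leaving out 1 animal at a time gave 82 to 149 genes over both durations, 65 to 213 at 3 d, 0 to 17 at 5 d, 0 to 3 for the difference, 0 to 87 against phenytoin and 525 to 817 against trimethadione; the lowest over both durations and at 3 d came without gabapentin 3 d replicate 1. Of the 129 genes, every one with a value kept its sign under each of the 11 alternatives, 116 of them having a value among the upper 60% of genes. Each alternative reused the gabapentin rats in which the 129 were chosen, so a kept sign is not separate support. No paired analysis was possible because the labels give animal numbers but no replicate number that runs across the groups.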
